A study of Mus musculus with 20 samples.

Results

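The 9 genes examined here belong to the contact between blood vessels and leukocytes, and were measured in liver and white adipose tissue (WAT) of mice with and without CD44. They were chosen by name, and of the 27670 gene symbols on the arrays they were read by 19 of 41174 probes. Vcam1, Icam1, Sele, Selp and Selplg make up the 5 adhesion receptors, and Pecam1, Cdh5, Kdr and Vwf make up the 4 endothelial identity genes. A gene is described by its brightest probe, the one with the highest mean over all arrays, and its other probes are given beside it.

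Leukocytes leave the blood in steps. The selectins E-selectin (Sele) and P-selectin (Selp) on activated endothelium catch sugar-bearing ligands such as PSGL-1 (Selplg) on the passing cell and let it roll, and VCAM-1 (Vcam1) and ICAM-1 (Icam1) then hold it through its integrins while it crosses the junctions. PECAM-1 (Pecam1) and VE-cadherin (Cdh5) join endothelial cells to each other, VEGF receptor 2 (Kdr) carries the main growth signal of the endothelium, and von Willebrand factor (Vwf) is stored with P-selectin and ties platelets to the vessel wall. CD44 itself, a receptor for hyaluronan, also takes part in the rolling of leukocytes. VCAM-1 and ICAM-1 are not limited to endothelium, and macrophages and mesenchymal cells can carry them as well.

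All mice were male, of the C57BL/6 strain, 7 months old and fed a high fat diet (HFD) with 35% fat for 21 weeks, so that every group shares the diet and no lean group enters the comparisons. The groups were wildtype liver, CD44KO liver, wildtype WAT and CD44KO WAT, with 5 arrays each, and are called WT and CD44KO below. The knockout lacks CD44 in every cell of the body, and the deficient line had been backcrossed to C57BL/6J. The labels number the samples within a group and do not say whether each came from a mouse of its own, so the p-values measure the spread between these samples. They also do not say whether liver and WAT samples came from the same mice. The test between tissues below treats all arrays as independent.

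Total RNA was labelled with a single dye and read on 20 Agilent mouse arrays. A level below is the log2 of the processed signal relative to the 75th percentile of the same array, so that 0 stands for that percentile and a difference of 1 for a 2-fold change. Levels of different probes are not on a common scale, and no probe was set against another. The summed signals of lists given below do add different probes. Each sum is carried mostly by its brightest probes and is compared between arrays only. On the liver arrays this percentile was 432.7 to 574.6 and on the WAT arrays 1541 to 2792, and 57.4% to 69.5% of the spots of 19 arrays were well above background. The remaining array, WT WAT replicate 1, stood apart with 89.5% of its spots well above background and a median signal of 897, against 117 to 224 on the other WAT arrays, and the WAT value of each gene's brightest probe and the list medians in WAT are therefore given with and without it. Scaling to the median in place of the 75th percentile moved the median genotype difference over all WAT probes from -0.06 to 0.42. Liver and WAT arrays lay on separate slides and were read on separate scanners, so that tissue cannot be told apart from these. The labelled tissues carried their own markers, with summed signals of hepatocyte markers of 2782 to 4193 times the 75th percentile in liver and 5.37 to 65.6 times in WAT, and all 10 adipocyte markers were well above background on at least 3 arrays of each WAT group. Cd44 was at 0.11 to 0.83 in WT liver, -4.19 to -3.24 in CD44KO liver, 3.55 to 4.56 in WT WAT and -0.67 to -0.35 in CD44KO WAT, so that the targeted gene separated the genotypes in both tissues without overlap by this probe and by a second one. Another Cd44 probe was dim (well above background on 3 WT and 2 CD44KO liver arrays) and did not separate them.

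The probes read below are 60 bases long. The second probes of Vcam1, Icam1, Selplg and Vwf are shown. The liver results of Vcam1 and Selplg that passed rest on their brightest probes, whose sequences are not shown. The printed sequences are given 5′ to 3′ on the transcript strand, and each of them can be read through without a stop codon in at least 1 frame. Positions are those of the array design (build mm7).
Vcam1 (NM_011693), chr3:115900948-115901007, minus strand: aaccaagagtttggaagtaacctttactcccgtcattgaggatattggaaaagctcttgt
Icam1 (NM_010493), chr9:20904404-20904463, plus strand: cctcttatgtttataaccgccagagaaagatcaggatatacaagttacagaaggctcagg
Selplg (NM_009151), chr5:113040975-113041034, minus strand: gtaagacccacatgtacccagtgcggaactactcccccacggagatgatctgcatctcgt
Vwf (NM_011708), chr6:125708635-125708694, plus strand: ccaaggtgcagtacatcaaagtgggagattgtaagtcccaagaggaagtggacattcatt
The brightest probes of these genes are other probes, at chr3:115885211-115885270 for Vcam1, chr9:20905300-20905359 for Icam1, chr5:113040391-113040418 for Selplg, where the design places only part of the probe, and chr6:125709328-125709387 for Vwf.

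The first question was whether loss of CD44 changed these genes in the liver of obese mice. Both genes that passed the test were adhesion receptors and both were lower without CD44. Vcam1 fell by 1.16 on the log2 scale, a 2.24-fold decrease, and Selplg fell by 0.72, a 1.65-fold decrease. None of the 4 endothelial identity genes passed by its brightest probe (1 had an unadjusted p under 0.05, as did 32.2% of all probes), and their differences ran from -0.32 to 0.40. Over all 24689 probes tested in liver, 13.6% passed, 5.75% as lower and 7.85% as higher in CD44KO, against 2 of the 8 genes tested. In the adhesion receptors the median difference was -0.52 and in the endothelial identity genes 0.19, beside 0.08 over all probes. The study listed Vcam1 among genes it had chosen on these same liver arrays, so its direction here is not independent evidence.

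Vcam1, the endothelial counter-receptor of the integrin VLA-4, stood at 1.58, 1.51, 0.76, 1.21 and 1.27 on the 5 WT liver arrays and at 0.11, -0.30, 0.67, -0.12 and 0.15 on the 5 CD44KO liver arrays. The genotypes did not overlap, and WT replicate 3 and CD44KO replicate 3 came closest to each other. Non-overlapping probes that were lower in CD44KO made up 4.22% of all probes tested. The mean was 1.27 ± 0.33 (SD, n = 5) in WT and 0.10 ± 0.36 (SD, n = 5) in CD44KO, and the difference of -1.16 had a standard error of 0.20 and a 95% interval from -1.61 to -0.72 (adjusted p = 0.0121, limma). The exact permutation test, two-sided, gave p = 0.0079, the smallest that 5 against 5 arrays allow. On each of the 3 liver slides CD44KO was lower, by -1.57, -1.02 and -0.65. Vcam1 passed under all 10 other settings and with each array left out, with adjusted p-values from 0.0035 to 0.0469. The second probe, with the sequence above, was well above background on all 5 WT and on 1 of 5 CD44KO liver arrays, so that it entered the test through the WT arrays and its CD44KO level was measured on 1 array only. It missed the threshold (adjusted p = 0.0618, limma) and is not read further. The remaining Vcam1 probe was well above background on 1 of the 10 liver arrays and was not tested.

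Selplg, the ligand of P-selectin on leukocytes, stood at 0.56, 0.52, 0.23, -0.08 and 0.28 in WT liver and at -0.28, -0.77, -0.07, -0.77 and -0.19 in CD44KO liver. WT replicate 4 fell just under CD44KO replicate 3, and the other arrays were separated by genotype. The difference of -0.72 had a standard error of 0.18 and a 95% interval from -1.11 to -0.33 (adjusted p = 0.0282, limma; exact permutation test, two-sided, p = 0.0159). CD44KO was lower on each slide, by -0.99, -0.55 and -0.51. The call was not stable. It was lost with the normexp background correction (adjusted p = 0.0792, limma), without a filter on dim probes (adjusted p = 0.0646, limma) and when any one of WT replicates 1, 2 and 5 or CD44KO replicates 1, 2 and 4 was left out (adjusted p = 0.0535 to 0.0717, limma), with differences that stayed between -0.82 and -0.61. The second Selplg probe differed by -0.55 (standard error 0.18, adjusted p = 0.0689, limma).

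Icam1, the ligand of the beta-2 integrins, ranged from 1.13 to 2.21 in WT liver and from 0.82 to 2.06 in CD44KO liver. The genotypes overlapped widely, and the mean difference of -0.31 had a 95% interval from -0.95 to 0.32 (adjusted p = 0.483, limma). The value was -0.17 without CD44KO replicate 2 or 4, -0.18 without WT replicate 1 and -0.48 without CD44KO replicate 3. Its second probe differed by -0.35 (adjusted p = 0.489, limma). The liver arrays of one genotype were ordered alike for 3 of the adhesion receptors. Within CD44KO, replicate 3 was the highest array for Vcam1, Icam1 and Selplg, and replicates 2 and 4 were the lowest pair for all 3. Within WT, replicate 1 was the highest for these 3 genes. This order follows the slides in part, since replicates 2 and 4 of both genotypes lay on one slide and WT replicates 1 and 5 and CD44KO replicates 3 and 5 on another.

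Selp lay between -2.37 and -1.80 in WT liver and between -2.54 and -2.10 in CD44KO liver. The difference of -0.21 had a 95% interval from -0.47 to 0.04 (adjusted p = 0.231, limma), and with the normexp background correction it turned to 0.034. Sele was not well above background on any of the 10 liver arrays and on 1 of the 10 WAT arrays, WT WAT replicate 1, and was not tested in either tissue. On the other 19 arrays its signal gives no level, only that it was not well above background.

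Among the endothelial identity genes in liver, Vwf was lower in CD44KO by both of its measurable probes, and the second passed the test. The brightest probe stood at 1.74, 1.60, 1.82, 1.77 and 2.04 in WT and at 1.41, 1.26, 1.50, 1.59 and 1.64 in CD44KO, with WT replicate 2 inside the CD44KO range. Its difference of -0.32 had a standard error of 0.10 (adjusted p = 0.0651, limma). The second probe, printed above, stood at -0.27, -0.25, -0.01, -0.05 and 0.07 in WT and at -0.61, -0.73, -0.68, -0.56 and -0.81 in CD44KO, with no overlap. Its difference of -0.58 had a standard error of 0.09 and a 95% interval from -0.77 to -0.38 (adjusted p = 0.0097, limma; exact permutation test, two-sided, p = 0.0079), and CD44KO was lower on each of the 3 slides by both probes. With the 2 probes averaged the difference was -0.45 (adjusted p = 0.0164, limma), and with quantile normalization the brightest probe passed (adjusted p = 0.0465, limma).

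Pecam1, Cdh5 and Kdr did not pass in liver. Pecam1 differed by 0.05 with a 95% interval from -0.48 to 0.59, Cdh5 by 0.32 with an interval from -0.09 to 0.73, and Kdr by 0.40 with an interval from -0.07 to 0.87 (adjusted p = 0.901, 0.257 and 0.224, limma). The second Cdh5 probe differed by 0.30 (adjusted p = 0.438, limma). In WT liver replicate 3 was the lowest array for all 3 genes, at -2.93, -0.66 and 0.33, while the other 4 arrays reached no lower than -2.11, 0.01 and 1.09. Without it the Cdh5 difference was 0.16, that of Kdr 0.20, and that of Pecam1 turned to -0.14. The plot of levels by array shows that replicate below the rest of its group in these panels.

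**Figure D1:**
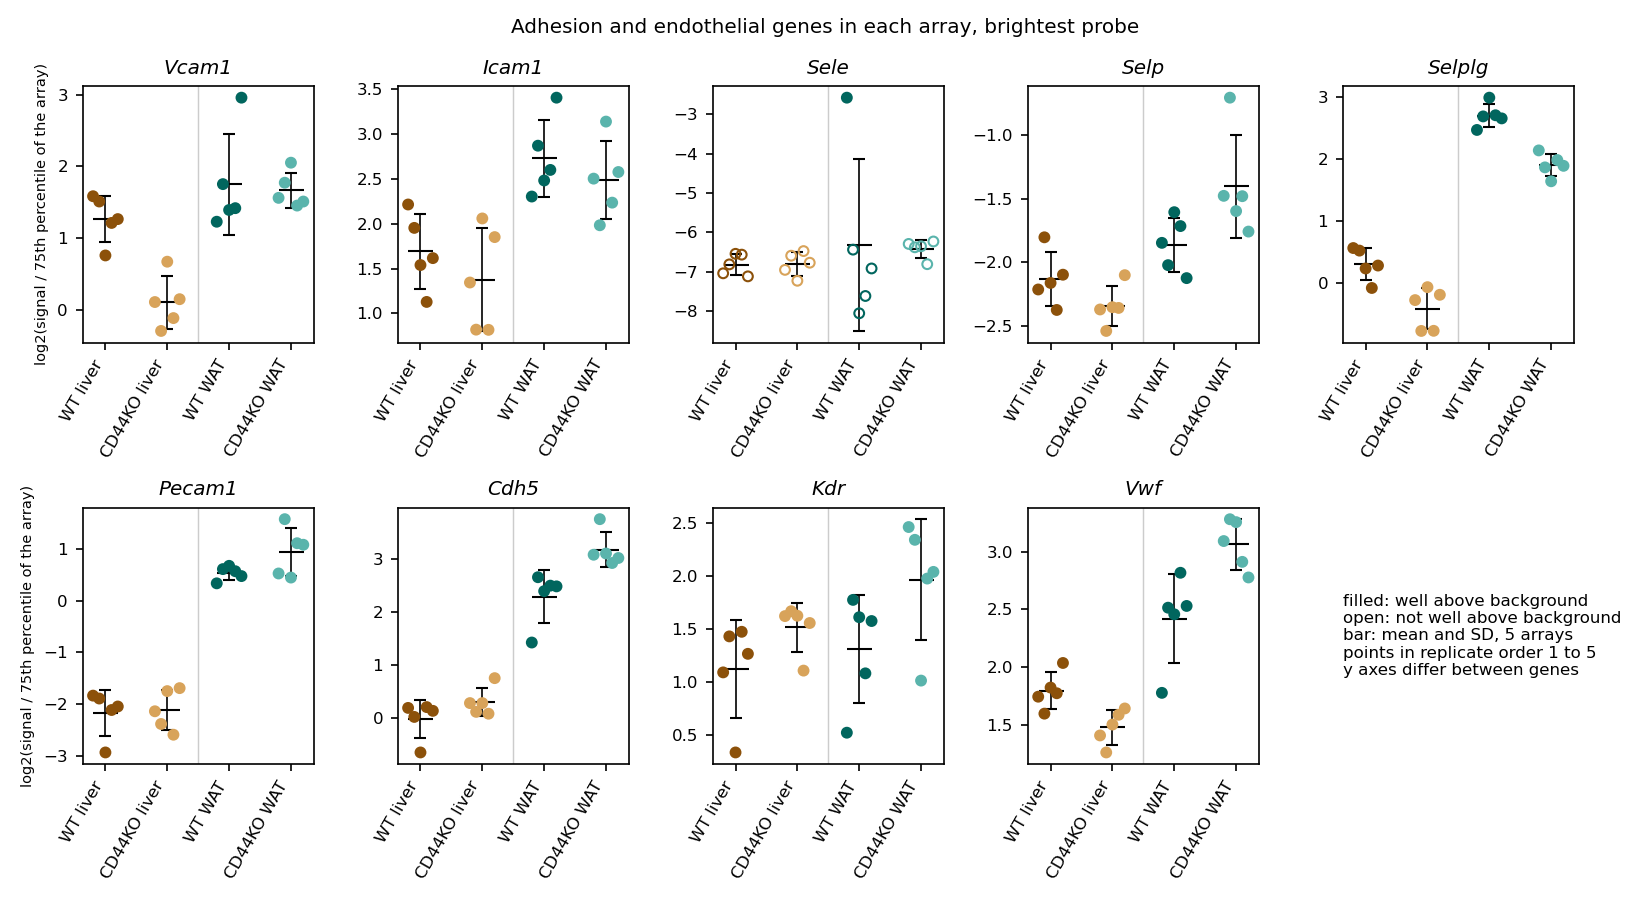
Level of each gene in every array, by its brightest probe, in the 4 groups (y axis, log2 of the signal relative to the 75th percentile of the array, with a scale of its own in each panel; bars, mean and SD of 5 arrays). The 5 CD44KO liver points of Vcam1 lie below all WT liver points, Selplg is separated by genotype in WAT, and the open Sele points are not well above background.

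The second question was the same comparison in WAT. None of the 8 genes tested passed the threshold in WAT (0 of 8 by limma), where 0.0398% of the 27654 probes tested passed at all. At an unadjusted p under 0.05 there were 3 of the 8, Selplg, Cdh5 and Vwf, beside 14.9% of all probes. With array weights 4 genes passed (Selplg, Pecam1, Cdh5 and Kdr) and with all 20 arrays in one fit 3 passed (Selplg, Cdh5 and Vwf). These settings also raised the count over all probes, from 11 to 5292 and 1647. The 4 endothelial identity genes were all higher in CD44KO WAT, by 0.41 to 0.89 with a median of 0.65, and 0.47 without WT WAT replicate 1, while 44.7% of all probes were higher and the median over all probes was -0.06. The direction, but not the size, held under each setting and with each array left out. The values ran from 0.22 (Vwf with array weights) to 1.37 (Cdh5 with median scaling, which moved all probes upward as given above), and Pecam1 was 0.26 without CD44KO WAT replicate 2. Within slides the direction was not uniform. On the slide with 3 WT arrays and 1 CD44KO array, Kdr was -0.64 and Pecam1 -0.14, while Cdh5 was 0.59 and Vwf 0.76. The second probes of Cdh5 and Vwf were -0.11 and -0.48 there. On the slide with 2 arrays of each genotype, which held WT WAT replicate 1, the brightest probes of Kdr, Pecam1, Cdh5 and Vwf gave 1.39, 0.87, 1.42 and 0.73. The 4 adhesion receptors tested had a median of -0.16, and -0.28 without WT WAT replicate 1, with 3 lower and 1 higher.

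Selplg was at 2.46, 2.68, 2.99, 2.70 and 2.65 in WT WAT and at 2.14, 1.86, 1.64, 1.98 and 1.89 in CD44KO WAT. No CD44KO array reached the WT range, as in 2.07% of all WAT probes for those lower in CD44KO. The mean was 2.70 ± 0.19 (SD, n = 5) in WT and 1.90 ± 0.18 (SD, n = 5) in CD44KO. The difference of -0.80, a ratio of 1.74 between the means, had a standard error of 0.15 and a 95% interval from -1.13 to -0.47 (adjusted p = 0.138, limma; exact permutation test, two-sided, p = 0.0079). It was -0.855 without WT WAT replicate 1 (adjusted p = 0.0743, limma), -0.85 with array weights (adjusted p = 0.00041, limma) and -0.32 with median scaling (adjusted p = 0.719, limma). On the 2 slides that held both genotypes it was -0.71 and -1.14, and the remaining slide held CD44KO arrays only. The second probe, printed above, also separated the genotypes, at 1.47 to 1.91 in WT and -0.36 to 0.83 in CD44KO (difference -1.09, standard error 0.24, adjusted p = 0.165, limma).

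Cdh5 was at 1.42, 2.65, 2.39, 2.49 and 2.48 in WT WAT and at 3.07, 3.74, 3.10, 2.92 and 3.01 in CD44KO WAT. All CD44KO arrays lay above all WT arrays, and probes of that kind made up 4.10% of those tested. The difference of 0.89 had a standard error of 0.26 and a 95% interval from 0.31 to 1.46 (adjusted p = 0.204, limma; exact permutation test, two-sided, p = 0.0079). Without WT WAT replicate 1, the lowest array, it was 0.67 (adjusted p = 0.156, limma), and with array weights it was 0.50. The second Cdh5 probe differed by 0.70 (adjusted p = 0.271, limma).

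Vwf was at 1.78, 2.52, 2.46, 2.82 and 2.53 in WT WAT and at 3.09, 3.28, 3.26, 2.91 and 2.78 in CD44KO WAT, with WT replicate 4 inside the CD44KO range. The difference was 0.65 (standard error 0.21, adjusted p = 0.224, limma), and 0.48 without WT WAT replicate 1 (adjusted p = 0.209, limma). Its second probe differed by 0.20, with a 95% interval from -0.37 to 0.77. Kdr differed by 0.66 (95% interval -0.07 to 1.38, adjusted p = 0.371, limma) and Pecam1 by 0.41 (95% interval -0.07 to 0.90, adjusted p = 0.398, limma), with overlapping genotypes for both. Without WT WAT replicate 1 these values were 0.46 and 0.37. That array was the lowest of the WT WAT arrays for all 4 endothelial identity genes.

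Vcam1 did not pass in WAT. It was at 1.23, 1.75, 1.39, 1.42 and 2.96 in WT and at 1.56, 1.77, 2.05, 1.45 and 1.51 in CD44KO, so that WT replicate 5 was far above the rest and the other arrays were mixed. The difference of -0.08 had a 95% interval from -0.78 to 0.62 (adjusted p = 0.904, limma), became 0.22 without WT replicate 5 and -0.21 without WT replicate 1, and turned to 0.40 with median scaling and 0.19 with the slide as a block. Both Vcam1 probes that could be tested gave -0.08. Icam1, which the study listed among genes chosen on these same WAT arrays, ranged from 2.30 to 3.41 in WT and from 1.98 to 3.14 in CD44KO by its brightest probe, with a difference of -0.25 (95% interval -0.83 to 0.34, adjusted p = 0.650, limma) that turned to 0.24 with median scaling. Its second probe, printed above, was at -0.35, -0.12, -0.22, -0.63 and 0.37 in WT and at -1.04, -0.99, -1.40, -0.68 and -0.46 in CD44KO, so that CD44KO replicate 5 lay inside the WT range and the other 4 below it. That probe differed by -0.72 (standard error 0.23, adjusted p = 0.224, limma; exact permutation test, two-sided, p = 0.0159). Selp differed by 0.46 (95% interval -0.01 to 0.93, adjusted p = 0.346, limma) by its brightest probe and by 0.09 by the other. Without WT WAT replicate 1 the brightest probes of Icam1 and Selp gave -0.35 and 0.46. Icam1 was -0.08 without WT WAT replicate 5, -0.12 without CD44KO WAT replicate 2 and -0.41 without CD44KO WAT replicate 3, and Selp was 0.28 without CD44KO WAT replicate 2 and 0.13 with array weights.

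**Figure D2:**
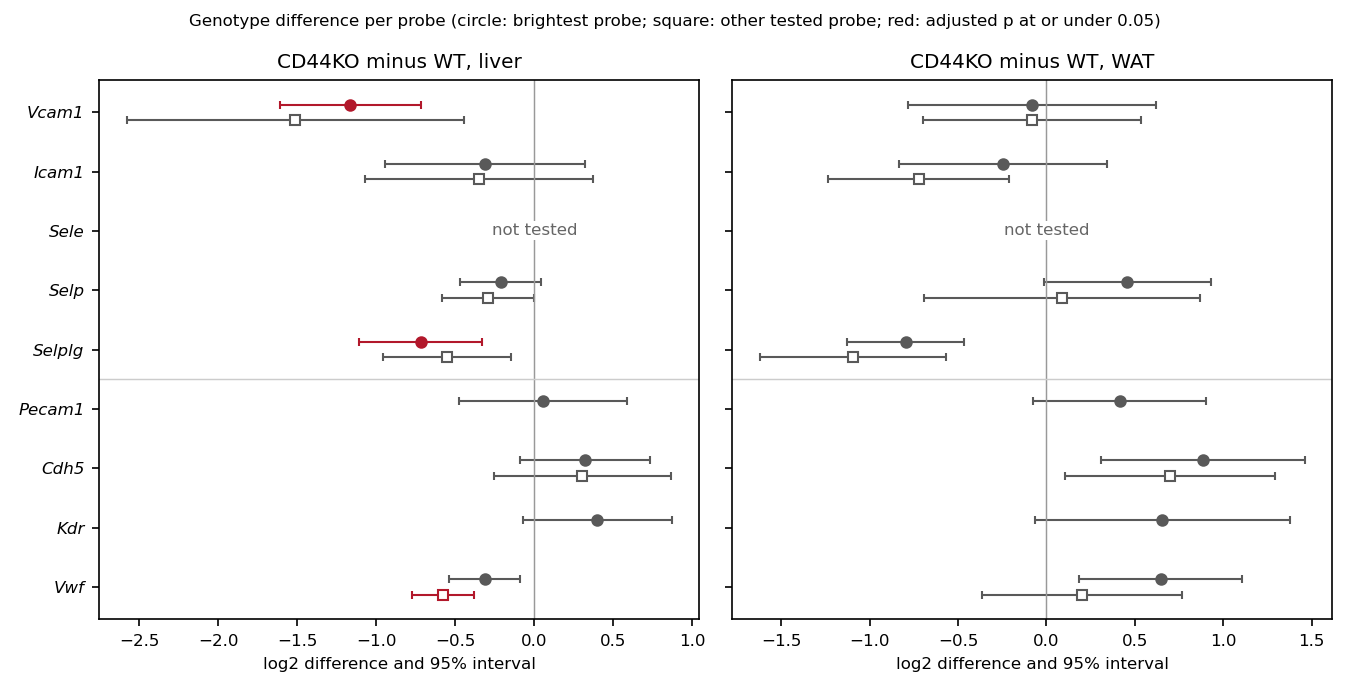
CD44KO minus WT difference of each tested probe (x axis, log2) with its 95% interval from limma, in liver (left) and WAT (right). In liver the brightest probes of Vcam1 and Selplg and the second probe of Vwf pass an adjusted p of 0.05, and in WAT no probe does, with the 4 endothelial identity genes to the right of 0.

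Whether the effect of the genotype differed between the tissues was tested directly, by the interaction over all 20 arrays. Vwf was the 1 gene of 8 that passed, beside 1.15% of 28989 probes. Its difference was 0.96 higher in WAT than in liver (standard error 0.23, 95% interval 0.48 to 1.44, adjusted p = 0.0489, limma), being -0.32 in liver and 0.65 in WAT. This call lay at the threshold. It held in 5 of 20 fits with an array left out, those without CD44KO liver replicate 3, WT WAT replicates 1 and 4 or CD44KO WAT replicates 4 and 5, and was lost in the other 15, with adjusted p-values up to 0.0974. Over all 20 of these fits the value lay between 0.80 and 1.06. It was also lost with median scaling (1.43, adjusted p = 0.403, limma), without the filter on dim probes (0.96, adjusted p = 0.0981, limma) and with the slide as a block (1.06, adjusted p = 0.0535, limma). With array weights it passed at a smaller value of 0.55. The second Vwf probe gave 0.78 (adjusted p = 0.168, limma).

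For Vcam1 the WAT effect was 1.08 higher than the liver effect (standard error 0.39, 95% interval 0.27 to 1.90, adjusted p = 0.174, limma), so that the liver decrease was not shown to differ from the WAT value. The difference passed without WT WAT replicate 5 (1.39, adjusted p = 0.0265, limma) and with array weights (1.01, adjusted p = 0.0205, limma). For Selplg the 2 effects were -0.72 and -0.80, and their difference of -0.08 had a 95% interval from -0.56 to 0.40 (adjusted p = 0.885, limma). The remaining 5 genes gave differences between 0.07 and 0.67, none past the threshold.

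The order of the 4 groups was read for each gene as a description, since tissue and scanner cannot be told apart. Selplg ran from WT WAT (2.70) over CD44KO WAT (1.90) and WT liver (0.30) to CD44KO liver (-0.42), and only the 2 liver groups overlapped. Cdh5 ran from CD44KO WAT (3.17) over WT WAT (2.28) and CD44KO liver (0.29) to WT liver (-0.03), again with overlap in liver only. Pecam1 was 2.69 higher in WAT than in liver in WT and 3.05 higher in CD44KO, without overlap between tissues. Vcam1 was 0.48 higher in WAT in WT, with overlapping arrays, and 1.57 higher in CD44KO, without overlap, and the last step of its order, from WT liver to CD44KO liver, was the one without overlap. All neighbouring groups overlapped for Icam1, Selp, Kdr and Vwf.

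The genes that followed Vcam1 most closely over the 10 liver arrays, among 16998 genes compared, were Lgals3bp (r = 0.993), Sgo1 (r = 0.988) and Stk10 (r = 0.985). Those closest to Selplg were Parp8 (r = 0.993), Rab7b (r = 0.991) and Mical1 (r = 0.989). These values describe likeness of pattern, and the 10 arrays hold both genotypes, so that a shared genotype difference enters each r.

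Genes that act with the adhesion receptors were read from lists. Beside the list counts stand the shares of all probes. In liver 13.6% passed, 5.75% as lower and 7.85% as higher, and 32.2% had an unadjusted p under 0.05. In WAT 0.0398% passed and 14.9% had an unadjusted p under 0.05. Of the leukocyte integrins and L-selectin, the partners of VCAM-1 and ICAM-1, 2 of 9 genes tested in liver passed and both were lower in CD44KO. These were Itgax (CD11c), which fell by 2.01 (standard error 0.49, adjusted p = 0.0284, limma), and Itgb7, which fell by 0.54 (standard error 0.16, adjusted p = 0.0462, limma). All 9 were lower, with a median of -0.24, where 38.7% of all probes were lower. In WAT 0 of 10 passed by limma (2 at an unadjusted p under 0.05), with 7 lower, 3 higher and a median of -0.46, and -0.52 without WT WAT replicate 1.

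Of the selectin ligands and the enzymes that build their glycans, 5 of 15 tested passed in liver, all lower in CD44KO, beside 5.75% of all probes. Fut7, the fucosyltransferase that completes selectin ligands on leukocytes, fell by 1.39 (adjusted p = 0.0124, limma), Cd34 by 0.95, Spn (CD43) by 0.86 and Cd24a by 0.76. The median of the list was 0.06, since 8 of the 15 were higher. In WAT 0 of 17 passed by limma (3 at an unadjusted p under 0.05).

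Of the NF-kB pathway and its inducing cytokines, which drive transcription of Vcam1, Icam1 and Sele in endothelium, 2 of 20 passed in liver, a share below the 13.6% of all probes. Ltb, a lymphotoxin subunit, fell by 0.73 (adjusted p = 0.0178, limma), and Nfkb2, the precursor of p52, fell by 0.64 (adjusted p = 0.0330, limma). The list median was -0.09 in liver. In WAT it was 0.04, and -0.05 without WT WAT replicate 1, and 0 of 20 passed by limma (2 at an unadjusted p under 0.05).

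Promoters were available for Icam1, Sele, Selp and Kdr (RefSeq, GRCm38.p6), and no entry was used for Vcam1, Selplg, Pecam1, Cdh5 and Vwf. In the 250 bases before the start, the kappa-B like letters GGNNNTTCC were searched on both strands, where N is any base. They were found in 15.7% of 32851 promoters. Icam1 held 2 matches, Sele 1, Selp 1 and Kdr 0. The Icam1 and Sele sequences are shown because these genes are textbook targets of NF-kB, with the matches in capitals. A match on the other strand is shown as its reverse complement.
Icam1, chr9:21015690-21015939, plus strand: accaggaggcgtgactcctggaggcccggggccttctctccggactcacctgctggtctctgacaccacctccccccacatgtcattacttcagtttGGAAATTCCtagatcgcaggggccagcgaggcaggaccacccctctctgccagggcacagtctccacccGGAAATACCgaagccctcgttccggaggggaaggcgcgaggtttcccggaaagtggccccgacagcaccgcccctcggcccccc
Sele, chr1:164047984-164048233, plus strand: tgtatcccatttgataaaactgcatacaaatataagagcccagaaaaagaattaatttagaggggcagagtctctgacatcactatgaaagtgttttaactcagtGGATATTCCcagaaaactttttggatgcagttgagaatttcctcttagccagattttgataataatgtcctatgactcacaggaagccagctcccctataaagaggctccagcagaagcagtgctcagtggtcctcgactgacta
The ETS core AGGAAG was found in 29.5% of all promoters, once each in Sele and Selp, and the GATA letters AGATAA in 9.99% and in none of these 4. A match describes letters in this window. Icam1 did not pass the test in either tissue and Sele was not tested.

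Further endothelial genes were read from lists in the same way. Of 24 further pan-endothelial genes 22 were higher in CD44KO WAT, with a median of 0.60, and 0.54 without WT WAT replicate 1. Over all WAT probes 44.7% were higher. Of the 24, 6 were higher without overlap between the genotypes, beside 4.10% of all probes. An unadjusted p under 0.05 was reached by 13, beside 14.9% of all probes, and 0 passed the adjusted threshold by limma. In liver the median was 0.16, 17 of 24 were higher, where 61.3% of all probes were higher, and 0 passed. An unadjusted p under 0.05 was reached by 4 (limma), a share below the 32.2% of all probes. Of the junction molecules of transmigration 14 of 18 were higher in WAT, with a median of 0.40, and 0.35 without WT WAT replicate 1, 8 of them without overlap, and 0 passed (8 at an unadjusted p under 0.05, limma). The shares of all WAT probes were again 44.7% higher, 4.10% higher without overlap and 14.9% with an unadjusted p under 0.05. In liver 0 of 19 junction molecules passed (8 at an unadjusted p under 0.05, limma, beside 32.2% of all probes), with 9 higher and 10 lower.

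The sinusoidal and lymphatic endothelial genes had medians of opposite sign in the 2 tissues. The median was 0.41 in liver, with 8 of 9 higher, where 61.3% of all probes were higher. In WAT it was -0.41 (-0.57 without WT WAT replicate 1), with 8 of 11 lower, where 55.3% of all probes were lower. In either tissue 0 passed. An unadjusted p under 0.05 (limma) was reached by 3 in liver, a share near the 32.2% of all probes, and by 1 in WAT, beside 14.9%. Of the VEGF ligands and co-receptors, which act on the receptor encoded by Kdr and its relatives, 1 of 7 passed in liver, a share near the 13.6% of all probes. This was Vegfa, which rose by 0.44 (standard error 0.12, adjusted p = 0.0411, limma). The list median in liver was -0.12, with 5 of 7 lower, where 38.7% of all probes were lower. In WAT 0 of 7 passed (4 at an unadjusted p under 0.05, limma), with a median of 0.68, and 0.61 without WT WAT replicate 1. The genotype effect on Vegfb and Vegfc was higher in WAT than in liver by 1.64 and 1.48 (adjusted p = 0.0368 and 0.0084, limma), and these 2 were singled out after their values were seen. Of the partners of von Willebrand factor and other platelet genes, 1 of 7 passed in liver, again near the 13.6% of all probes. This was Pf4, a platelet chemokine, which fell by 1.37 (standard error 0.27, adjusted p = 0.0168, limma). In WAT 0 of 8 passed (2 at an unadjusted p under 0.05, limma).

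**Figure D3:**
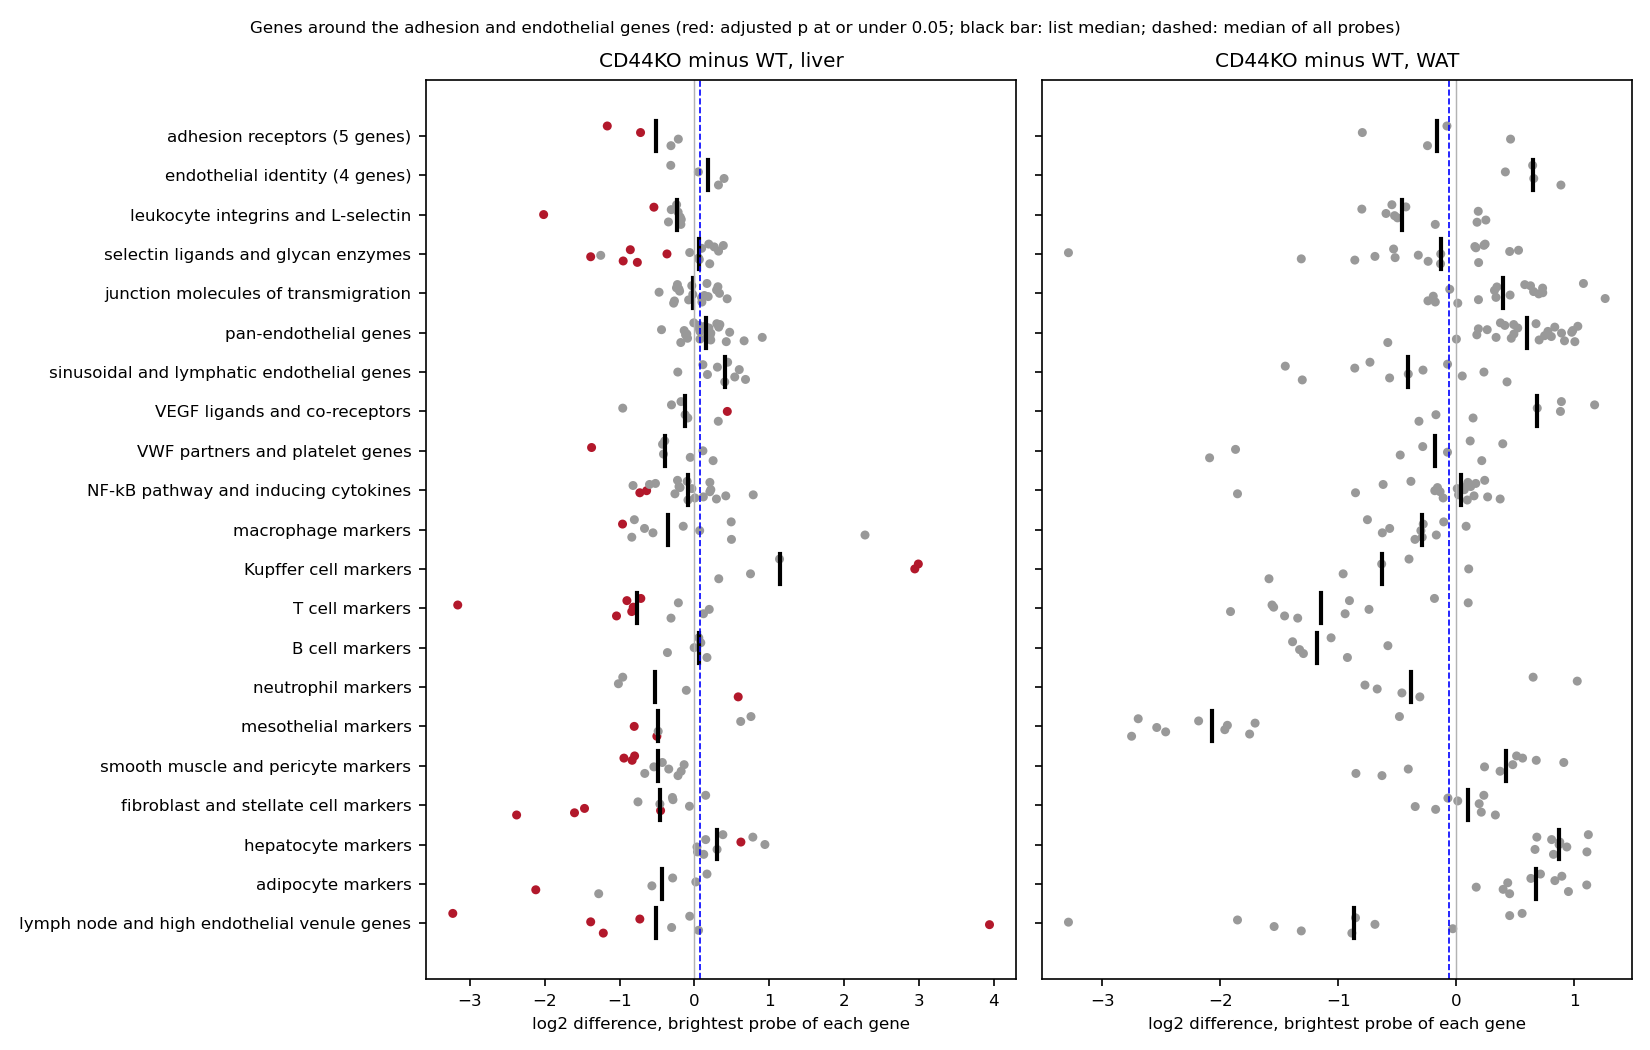
CD44KO minus WT difference (x axis, log2) of each tested gene by list, in liver (left) and WAT (right), with the list median as a black bar and the median of all probes, 0.08 in liver and -0.06 in WAT, dashed. The list medians of the adhesion receptors, T cell markers and smooth muscle markers lie below 0 in liver, and that of the pan-endothelial genes is 0.60 in WAT (red, adjusted p at or under 0.05; the 2 panels have x axes of their own).

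In whole tissue, fewer cells of a type and less RNA per cell cannot be told apart. Markers of several cell types moved with Vcam1 and Selplg in liver. Over all liver probes 13.6% passed, 5.75% as lower and 7.85% as higher, and the counts below are to be read beside these shares. Of 10 T cell markers 6 passed, all lower in CD44KO, among them Cd3d, Lck and Cd3g, which fell by 1.04, 0.90 and 0.84. Cd8a was also among the 6, at least 4.59-fold lower. It was well above background on no CD44KO liver array, so that it entered the test only through the WT arrays, where it is high. The summed T cell signal was 3.36 to 5.08 times the 75th percentile in WT and 2.65 to 3.33 times in CD44KO. Of 10 smooth muscle and pericyte markers 3 passed, Rgs5, Pdgfrb and Tagln, which fell by 0.94, 0.83 and 0.80, with summed signals of 31.4 to 36.0 in WT and 23.3 to 27.2 in CD44KO. Of 10 fibroblast and stellate cell markers 4 passed, Col1a1, Col3a1, Dpt and Dcn, which fell by 2.38, 1.60, 1.47 and 0.45, with summed signals of 94.8 to 137 in WT and 66.3 to 91.7 in CD44KO.

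Macrophage markers were less uniform in liver. Of 10, only Mpeg1 passed, which fell by 0.96, a share near the 13.6% of all probes. The summed signals of 66.7 to 132 in WT and 52.7 to 139 in CD44KO overlapped. Of 5 Kupffer cell markers 2 passed, Timd4 and Marco, which rose by 2.99 and 2.95 (Timd4 well above background on 3 of 5 WT arrays), with summed signals of 28.1 to 82.1 in WT and 70.7 to 188 in CD44KO. Among 8 lymph node and high endothelial venule genes 5 passed, 4 lower and 1 higher. The largest falls were in Ubd, Fut7 and Ccl19, by 3.23, 1.39 and 1.22. The 1 higher was Cxcl13, which was measured above background on 1 of 5 WT arrays. It entered the test only through the CD44KO arrays, where it is high, so its difference of 3.95 is not read as a measured size. Of 4 neutrophil markers only Csf3r passed, which rose by 0.59, while the other 3 were lower and the list median was -0.53. The summed neutrophil signals of 1.94 to 3.17 in WT and 1.11 to 2.35 in CD44KO overlapped. Cyp2e1 of 9 hepatocyte markers rose by 0.62. Cidec of 6 adipocyte markers fell by 2.12 (summed adipocyte signals 92.8 to 120.2 in WT and 16.5 to 82.2 in CD44KO). The keratins Krt8 and Krt18 of 5 mesothelial markers, which hepatocytes also express, fell by 0.80 and 0.50. For the hepatocyte and adipocyte lists, 1 gene of 9 and 1 of 6 were near the 13.6% of all probes that passed. No B cell marker (0 of 5, 0 at an unadjusted p under 0.05, limma) and no epididymis marker (0 of 4, 0 at an unadjusted p under 0.05, limma) passed. The part of these markers in the levels of Vcam1 and Selplg was not tested.

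In WAT the summed signals of the 4 endothelial identity genes were 8.79 to 16.9 in WT and 21.1 to 31.2 in CD44KO, and those of the pan-endothelial genes 164 to 305 and 291 to 474. Of the single endothelial identity genes only Cdh5 was without overlap between the genotypes, while Pecam1, Kdr and Vwf overlapped. Over all WAT probes 44.7% were higher, 55.3% were lower, 14.9% had an unadjusted p under 0.05 and 0.0398% passed. The counts below are to be read beside these shares. At an unadjusted p under 0.05 the hepatocyte, macrophage and B cell counts were near the share of all probes. All 10 adipocyte markers were higher in CD44KO WAT, with a median of 0.67, and 0 passed (4 at an unadjusted p under 0.05, limma), with summed signals of 537 to 924 and 783 to 1353. All 9 hepatocyte markers tested were higher too, with a median of 0.87, and 0 passed (1 at an unadjusted p under 0.05, limma). Their summed signals of 5.37 to 47.6 in WT and 14.5 to 65.6 in CD44KO overlapped. All 10 mesothelial markers were lower, with a median of -2.07, 0 passed (9 at an unadjusted p under 0.05, limma), and the summed signals were 3.74 to 18.8 in WT and 1.60 to 5.05 in CD44KO. Of 10 T cell markers 9 were lower, with a median of -1.14, and of 6 B cell markers all were lower, with a median of -1.18, with 0 past the threshold in either list (4 and 1 at an unadjusted p under 0.05, limma). Macrophage markers had a median of -0.30, with 9 of 10 lower and 0 past the threshold (2 at an unadjusted p under 0.05, limma), and summed signals of 316 to 456 in WT and 328 to 429 in CD44KO. Smooth muscle and pericyte markers had a median of 0.42, with 0 of 10 past the threshold (3 at an unadjusted p under 0.05, limma), and summed signals of 38.5 to 60.3 in WT and 57.6 to 76.6 in CD44KO. Without WT WAT replicate 1 the medians were 0.55 for the adipocyte, 1.02 for the hepatocyte, -2.08 for the mesothelial, -1.22 for the T cell, -0.70 for the B cell, -0.39 for the macrophage and 0.29 for the smooth muscle markers. The part of these markers in the WAT levels of the endothelial identity genes and of Selplg was not tested.

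Each value was also computed under other choices of background, scaling, filter and model, and with each array left out. The plot of values under each processing choice shows Vcam1 in liver in a narrow range, from -1.34 to -1.06, and the WAT values of the 4 endothelial identity genes on the same side of 0 throughout.

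**Figure D4:**
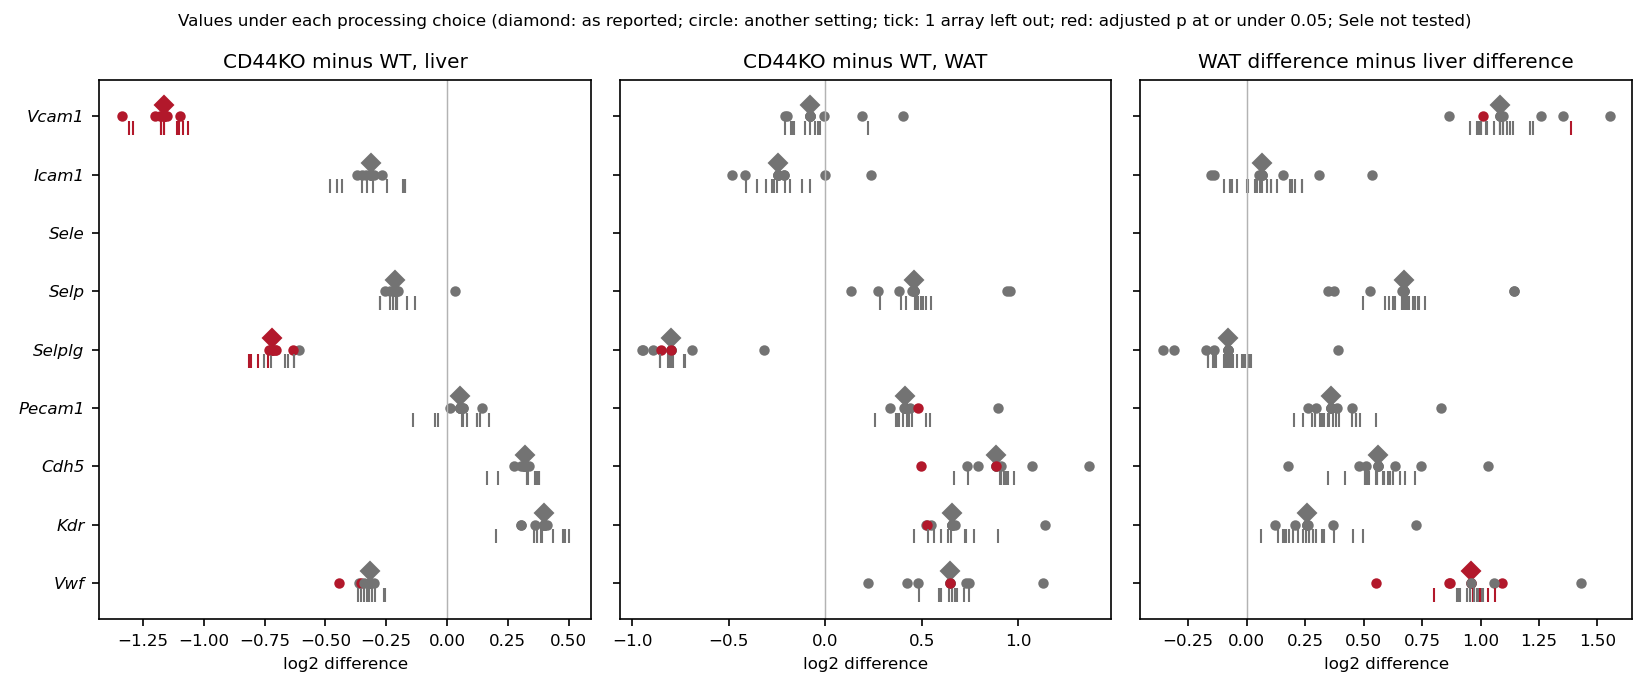
Log2 difference of each gene (x axis) as reported and under each other setting or with 1 array left out, for liver, WAT and the difference between the tissue effects. All liver values of Vcam1 lie between -1.34 and -1.06 and pass an adjusted p of 0.05, while those of Vwf in the right panel lie on both sides of the threshold.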

How the data were processed

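RNA of 20 samples was read on 20 Agilent one-color arrays. The authors deposited, per the file headers, linear fluorescence intensity values from Feature Extraction 9.5.3.1, with other columns of marks for spots well above background (13 times the background SD), saturated or outlying. The series table holds the same processed signals. A fitted surface had been subtracted from each spot and a trend within the array divided out, local background had not been subtracted, and the dimmest spots (2.87% to 26.7% per array) were surrogates. No scaling between arrays had been applied, and a normalization or test for the arrays is not given in the sources used here.

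Processed signals were converted to log2, and the 75th percentile of the 43379 spots other than controls was taken off each array. Outlier spots were left out and the spots of a probe averaged. A probe entered a test if 3 or more of the 5 arrays of a group had it well above background, and was tested with limma 3.58.1 in R 4.3.3 (lmFit and eBayes), with Benjamini-Hochberg adjustment over all probes tested and a threshold of 0.05. If a probe was too dim on all 5 arrays of one group, a lower bound replaced its fold, computed by raising each dim array to the lowest signal it held well above background. Single probes also had an exact permutation test over 252 relabellings. Genes were named by accession (22951 probes), symbol (6659) or synonym (3109) in RefSeq, otherwise as in the files (8455). Named genes were the 9 genes, per list and tissue at most the 4 largest changes past the threshold, and the 3 genes most like each gene past the threshold. The script was tested on simulated data. Figures and tables used Python with pandas and matplotlib. The genes, lists and tests were chosen with earlier results of these data known. Precision is limited by there being 5 arrays in a group. Alternatives were normexp (offset 50), quantile and median scaling, no or a strict filter, the mean of a gene's probes, the slide or replicate number as a block, array weights, 1 fit of all 20 arrays and each array left out.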

Additional observations from a re-analysis of the deposited data

Results flagged for a closer look

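Vwf was singled out because the effect of the genotype differed between liver and WAT by the interaction test, with 0.96 higher in WAT (adjusted p = 0.0489, limma), as given above. Among 36 groups of 5 arrays checked, 7 held an array far from the other 4 of its group, where chance gives about 1 in 20 groups. In WT liver, replicate 3 was the low array for Pecam1 at -2.93 (next -2.11) and for Cdh5 at -0.66 (next 0.01). In CD44KO liver, Kdr was at 1.11 in replicate 4 (next 1.56). In WAT, Cdh5 was at 1.42 in WT replicate 1 (next 2.39), the array that stood apart in its share of bright spots, and at 3.74 in CD44KO replicate 2 (next 3.10), and the same CD44KO replicate was the highest for Selp at -0.71 (next -1.48). Sele was at -6.80 in CD44KO WAT replicate 4 (next -6.38), but no array of that group was well above background, so these signals are no levels and their gap is not read. Explanations for these arrays were not tested.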

How the results depend on the processing

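The count of genes past the threshold in liver, 2 of 8, was 1 with the normexp correction and without a filter, 3 with quantile normalization and with the mean of a gene's probes, and 1 to 2 with an array left out. In WAT the count of 0 became 4 with array weights and 3 with all 20 arrays in one fit, and stayed at 0 with each array left out (0 to 0). The count of 1 for the difference between tissues became 0 with median scaling, without a filter and with the slide as a block, 2 with array weights, and 0 to 1 with an array left out.

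Over all probes, the liver count of 3358 (1420 lower and 1938 higher) was 641 with normexp (425 lower and 216 higher), 1027 without a filter, 638 with all 20 arrays in one fit (499 lower and 139 higher) and 858 to 4647 with an array left out. The WAT count of 11 was 35 with normexp, 19 with median scaling, 3 without a filter, 4 with the slide as a block, 5292 with array weights, 1647 with all 20 arrays and 3 to 19 with an array left out. The count of 334 for the difference between tissues was 20 with median scaling, 77 without a filter, 621 with the slide as a block, 3302 with array weights and 84 to 582 with an array left out.

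Of 552 values of single genes, 496 kept their direction and side of the threshold, 27 lost the threshold, 11 gained it and 18 turned direction. Direction turned for Selp in liver (0.034 with normexp), for Vcam1 in WAT (0.40 with median scaling, 0.19 with the slide as a block, -0.21 to 0.22 with an array left out), for Icam1 in WAT (0.24 with median scaling), for Pecam1 in liver (-0.14 to 0.17 with an array left out), for the difference between tissues of Icam1 (-0.14 with quantile normalization, -0.15 with the mean of its probes, -0.10 to 0.24 with an array left out) and for that of Selplg (0.39 with median scaling, -0.17 to 0.018 with an array left out). The value as reported missed the threshold in each of these. The causes were not tested.

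Samples with the same replicate number did not deviate together (same-number correlations of -0.04 to 0.42 in liver and -0.21 to 0.09 in WAT). Between liver and WAT these correlations were -0.19 to 0.14 in WT and -0.06 to 0.12 in CD44KO. The number is therefore not taken as a pairing. With the replicate block the probe counts were 1329 in liver, 3 in WAT and 86 for the difference between tissues, and the gene counts were 2, 0 and 0, the difference of Vwf between tissues missing the threshold (0.96, adjusted p = 0.0878, limma). Dim probes limit the reading of Sele and of the extra probes of Vcam1, Pecam1, Kdr and Vwf, which were not well above background on most arrays.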
